A study of Mus musculus with 2 samples.

Results

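The 10 genes described here encode products that the colonic epithelium puts into the mucus or onto its own surface: Muc2, Fcgbp, Zg16, Tff3, Retnlb, Reg3b, Reg3g, Ang4, Pigr and Lypd8. They were taken by symbol from 28695 genes listed in either of 2 single-cell RNA-seq libraries. One library, labelled Elf-1 KO, came from Elf-1-/- mice, and the other was labelled WT. Both came from C57BL/6 mice aged 8 to 10 weeks treated with dextran sulfate sodium (DSS), which injures the colonic lining. Each library pooled cells of the proximal and distal colon and rectum of 3 mice on a Singleron GEXSCOPE microchip, so each group is 1 library, and cells cannot be traced to a mouse. Differences between the libraries are therefore given as values with counting error, with no test.

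Mucus of the colon is built by goblet cells, which secrete the gel-forming mucin Muc2 together with proteins that bind or stabilise the gel. Antimicrobial proteins are added by goblet cells and by the absorptive colonocytes between them, and Pigr carries polymeric IgA from the lamina propria through the epithelial cell into the lumen. The products keep bacteria away from the epithelial surface, and several of them are induced by microbes or by cytokines such as IL-22 and IL-13. Elf-1, the product of Elf1, is a transcription factor of the ETS family.

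The libraries held 39750319 UMIs (unique molecular identifiers, each standing for 1 captured RNA molecule) in 10012 barcodes for the library labelled KO and 32481613 UMIs in 8635 barcodes for WT. After filtering, 9474 cells with a median of 2636 UMIs were kept in the library labelled KO, against 7715 cells with a median of 2022 in WT. Elf1 itself stood at 181 CPM (UMIs per 1000000 UMIs of the pooled cells, 95% Poisson interval 177 to 185) in the library labelled KO and at 192 CPM (187 to 197) in WT. Neither label says which exons were removed, and counts from outside them cannot check the genotype. The libraries shared 57 barcode sequences, of which 44 were kept as cells in both and 2 of those 44 fell in the same class.

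Epithelial cells made up 70 of the kept cells (0.739%) in the library labelled KO and 1044 (13.5%) in WT, so the epithelial levels below come almost wholly from WT. Epcam, an epithelial adhesion molecule, stood at 1374 CPM inside the epithelial class and 9.85 CPM outside it in the library labelled KO, and at 1764 CPM inside and 28.2 CPM outside in WT. Of 18 epithelial markers, 17 had more than 3 UMIs outside the epithelium in at least 1 library. Of the 17, 14 were at least 4-fold lower there in the library labelled KO, beside 3.25% of 14482 genes with at least 50 UMIs. The 10 genes were kept out of the clustering and of the marker lists. Within WT, 113 cells were goblet cells, 76 absorptive colonocytes, 74 undifferentiated and cycling cells and 21 enteroendocrine cells. The other 760 WT epithelial cells lay in 6 clusters that met no name and are called here by leading genes. A cluster of 139 of them had the B-cell markers Cd79a and Ighd among its leading genes, at a median of 930 UMIs. A cluster of 221 was led by the immunoglobulin gene Ighg2b, at a median of 1299 UMIs. Each met only 2 markers of its nearest epithelial list (of 24 and of 19), and both count as epithelial cells in all shares and folds below. In the library labelled KO, 55 of the 70 epithelial cells were enteroendocrine and 0 were goblet cells. A count of 0 of 9474 allows a goblet share of up to 0.0317% of kept cells there, taken as 3 cells, or 0.0389% as the exact binomial limit, against 1.46% in WT (exact binomial interval 1.21 to 1.76%). In pooled cells from 1 library per group, fewer cells of a type and different recovery of that type cannot be told apart.

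Promoter sequences were found for 7 of the 10 genes in a RefSeq table of build GRCm38.p6, and 4 of them are shown as the 250 bases before the RefSeq start, 5′ to 3′ on the gene's strand. Muc2 (chr7:141690090-141690339, plus strand) and Ang4 (chr14:51773591-51773840, minus strand) are shown as genes high in goblet cells. Reg3b (chr6:78370635-78370884, plus strand) and Reg3g (chr6:78468875-78469124, minus strand) are shown because most UMIs of both came from the same pair of cells. Capitals in Ang4 mark a match to the STAT motif, and capitals in the Reg3 pair mark the longest run that both windows share.
Muc2: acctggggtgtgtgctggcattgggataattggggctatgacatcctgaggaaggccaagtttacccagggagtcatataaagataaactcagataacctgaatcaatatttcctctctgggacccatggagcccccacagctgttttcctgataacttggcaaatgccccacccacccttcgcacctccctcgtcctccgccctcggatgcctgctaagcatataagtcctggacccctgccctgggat
Ang4: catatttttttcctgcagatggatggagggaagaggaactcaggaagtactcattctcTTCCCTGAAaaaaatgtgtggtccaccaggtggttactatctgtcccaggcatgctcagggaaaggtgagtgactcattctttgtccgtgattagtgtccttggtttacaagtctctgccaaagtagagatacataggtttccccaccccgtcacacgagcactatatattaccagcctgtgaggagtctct
Reg3b: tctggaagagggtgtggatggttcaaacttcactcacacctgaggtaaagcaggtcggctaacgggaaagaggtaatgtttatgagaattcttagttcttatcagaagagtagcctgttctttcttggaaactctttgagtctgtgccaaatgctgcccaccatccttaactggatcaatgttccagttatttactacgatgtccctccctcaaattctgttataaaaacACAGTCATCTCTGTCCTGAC
Reg3g: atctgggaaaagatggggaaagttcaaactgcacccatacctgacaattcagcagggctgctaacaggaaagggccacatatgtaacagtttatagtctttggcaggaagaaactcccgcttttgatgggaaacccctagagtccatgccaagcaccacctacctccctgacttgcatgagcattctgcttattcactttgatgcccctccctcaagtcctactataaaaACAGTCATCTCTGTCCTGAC

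The Reg3b and Reg3g windows were 68.9% identical over 254 aligned columns. The longest shared run, of 20 bases, reaches the last base of both windows. The search stopped there, so neither the end nor the full length of the run was measured. The genes lie 92.8 kb apart on chromosome 6. Motifs for ETS, STAT and CDX factors were searched on both strands of the windows. The ETS motif CCGGAAG was in 6.91% of all 32851 promoters of the table and in 0 of the 7 windows. The STAT motif TTCNNNGAA was in 7.02% of all promoters and matched Reg3b, 129 bases before the start, and Ang4, 192 bases before it. The CDX motif TTTATNG was in 9.81% of all promoters and matched Reg3g at 161 and at 28 bases before the start. The match at 28 bases is on the other strand, and the gene's own strand reads CTATAAA there. A match is a string of letters and was not tested for binding.

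Goblet cells of the WT library carried the mucus genes at high levels. Fold changes here are goblet over all other WT epithelial cells, from summed UMIs, with exact binomial intervals that cover counting error only. Levels of different genes are UMI counts with no correction for length. Because the cells were clustered on other genes of the same profiles, the folds describe the clusters and test nothing. A gene was called at 4-fold or more with at least 50 UMIs, and 6 of the 10 genes were called higher in goblet cells, where 1.46% of 9386 genes were. Reg3b and Reg3g were called lower, where 4.76% were. Those 2 calls rest largely on 2 cells outside the goblet group, which held 89.8% of the Reg3b and 79.6% of the Reg3g UMIs. Their log2 folds were -4.28 and -5.61. In cells thinned to 1000 UMIs, 0 of 98 goblet cells had a UMI of either gene. With that 0 taken as 3 UMIs the log2 folds were -0.10 and 0.18, so their sign was not measured. The median log2 fold of the 10 genes was 5.14, beside -0.30 over all 9386 genes.

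Zg16, a lectin-like protein that binds the cell wall of Gram-positive bacteria, had 22788 CPM in goblet cells against 160 CPM in the other epithelial cells, 142-fold higher (133 to 152). Fcgbp, a large protein that is cross-linked into the Muc2 gel, stood at 5091 CPM in goblet cells and 75.3 CPM in the others, 67.6-fold higher (61.3 to 74.7). Tff3, a trefoil peptide linked to epithelial repair, had 12642 CPM in goblet cells and 243 CPM in the others, 52.0-fold higher (49.2 to 54.98). These 3 ranked among the highest folds of the genes tested, at percentiles of 100, 99.9 and 99.8. Muc2, the structural mucin of the gel, reached 9786 CPM in goblet cells and 328 CPM in the others, 29.8-fold higher (28.4 to 31.3). Muc2 had the smallest fold of the 6 genes called.

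The antimicrobial products of goblet cells had folds in the same range as the mucus genes. Retnlb (RELMβ), a secreted protein that damages bacterial membranes, was at 3476 CPM in goblet cells and 64.4 CPM in the others, 54.0-fold higher (48.5 to 60.2). Ang4, a ribonuclease with antibacterial activity in mice, was at 2756 CPM in goblet cells and 65.8 CPM in the others, 41.9-fold higher (37.6 to 46.7). All 6 genes stayed at least 4-fold higher under each of the 9 alternatives that gave them a new fold, with 4.87 as the lowest log2 value. The size of the folds moved beyond these intervals. With the libraries clustered apart, the log2 fold was 6.29 for Muc2 beside 4.90 as given above, 7.04 for Retnlb beside 5.75, 7.53 for Ang4 beside 5.39 and 6.35 for Tff3 beside 5.70. As a mean over cells it was 5.69 for Zg16 beside 7.15 and 5.02 for Tff3. Together the 10 genes made up 61540 CPM of goblet-cell RNA, against 25708 CPM in absorptive colonocytes and 3807 to 14533 CPM in the other groups.

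**Figure D1:**
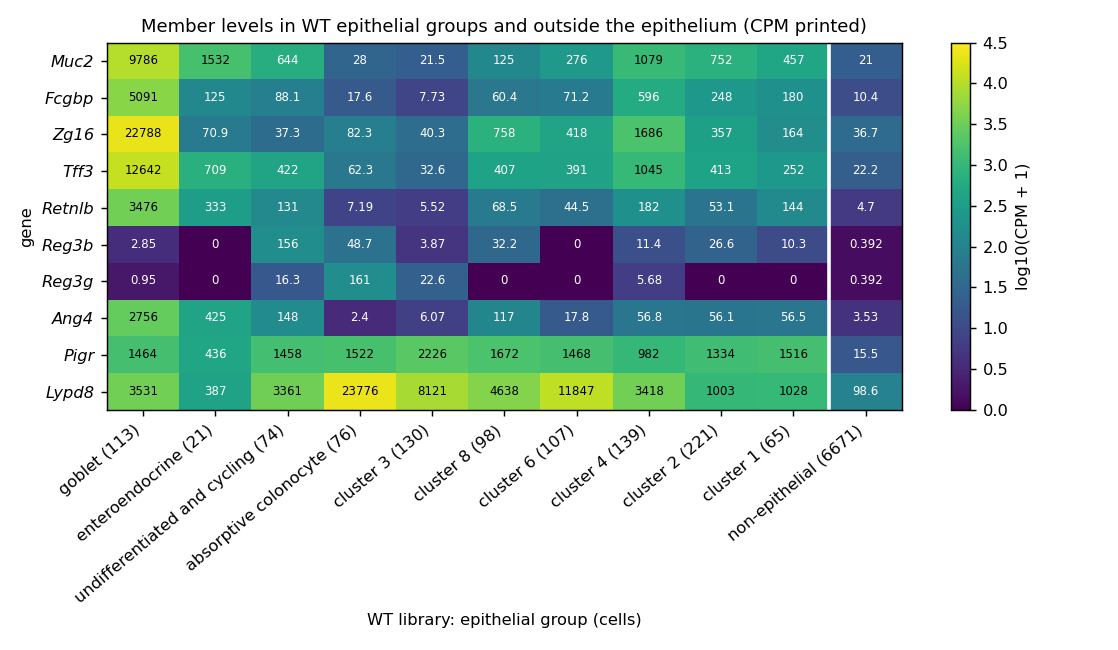
Levels of the 10 genes (rows) in the 10 epithelial groups of the WT library and, right of the white line, in all 6671 WT non-epithelial cells. Colour is log10(CPM + 1), the printed numbers are CPM and the number of cells stands after each group. The 6 mucus and goblet antimicrobial genes peak in goblet cells, Lypd8 in absorptive colonocytes, and Pigr lies between 436 and 2226 CPM in every epithelial group.

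Single goblet cells differed widely in these genes. Muc2 was in 110 of the 113 cells, with quartiles of 14 and 111 UMIs, a median of 59 and a highest value of 878. Zg16 was in 78 cells only, with a median of 10 UMIs and a highest value of 4584, and its 10 highest cells held 67.3% of its goblet UMIs. The same share was 38.2% for Muc2 and 70.3% for Ang4. Ang4 was in 71 cells with a median of 1 UMI and a highest value of 449, and Retnlb was in 94 cells with a median of 8 and a highest value of 419. Muc2 was therefore the most evenly spread of the 6 and Ang4 the least.

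**Figure D2:**
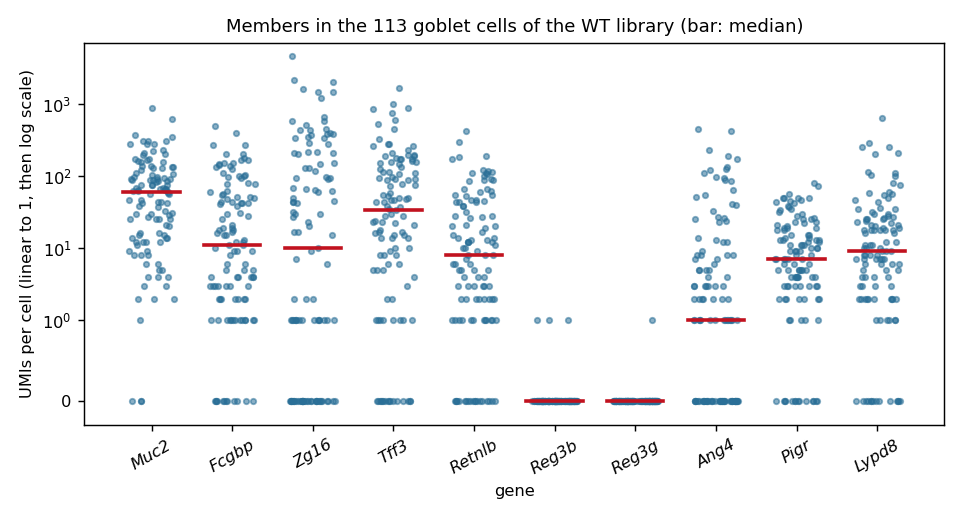
UMIs of each gene (columns) in the 113 WT goblet cells, 1 point a cell, with the vertical axis linear to 1 UMI and on a log scale above. The bar is the median, which is 59 for Muc2, 34 for Tff3, 11 for Fcgbp, 10 for Zg16, 1 for Ang4 and 0 for Reg3b and Reg3g.

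Among goblet cells Fcgbp, Zg16 and Tff3 varied together, as described by Spearman correlations of CPM over 113 cells of 1 library that share depth effects. The correlation was 0.83 between Fcgbp and Zg16 and 0.78 between Zg16 and Tff3, and 0.84 and 0.75 in 98 cells reduced to 1000 UMIs each. Muc2 followed Tff3 weakly, at 0.12, and Fcgbp at 0.51. The 35 goblet cells with 0 UMIs of Zg16 had medians of 20 Muc2 and 2 Tff3 UMIs at a median depth of 4581 UMIs. The 33 goblet cells with at least 100 Zg16 UMIs had medians of 95 Muc2 and 171 Tff3 UMIs at 6873 UMIs. By these medians Muc2 was above Tff3 in cells with no Zg16 and below it in cells rich in Zg16, while single cells of both groups went either way. Because Zg16 and Tff3 varied together, a split on Zg16 also splits Tff3. Retnlb and Ang4 correlated at 0.51, and at 0.41 after thinning.

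**Figure D3:**
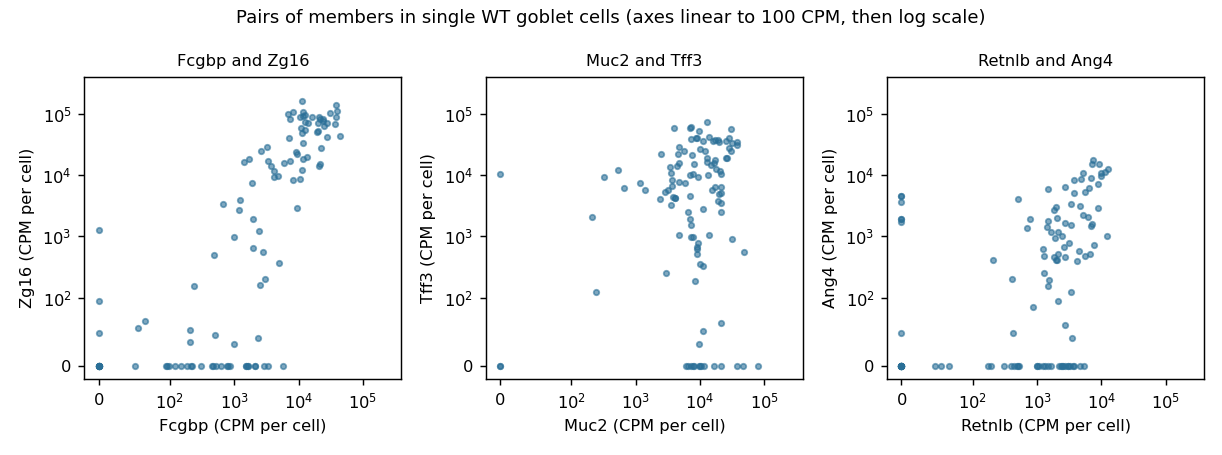
Pairs of genes in single WT goblet cells, each axis in CPM per cell, linear to 100 CPM and on a log scale above, 1 point a cell. Fcgbp and Zg16 rise together (Spearman 0.83 over 113 cells), Muc2 and Tff3 scatter (0.12), and Retnlb and Ang4 fall between (0.51).

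Lypd8 was highest in absorptive colonocytes. The protein binds flagellated bacteria at the surface of colonocytes, and its RNA gave 56840 of the 133615 member UMIs in WT epithelial cells. Absorptive colonocytes had 23776 CPM (95% Poisson interval 23507 to 24048), in 76 of 76 cells, with 5 UMIs in the lowest cell, a median of 396 and 1435 in the highest. The cluster led by Cldn8 and Sprr2a3 had 11847 CPM, the cluster led by Krt36 and Aqp4 8121 CPM, the cluster led by Ceacam20 4638 CPM, goblet cells 3531 CPM and undifferentiated and cycling cells 3361 CPM. Enteroendocrine cells were lowest, at 387 CPM. The Cldn8 cluster had a median of 804 UMIs per cell and met too few markers to be named.

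Lypd8 was 4.91-fold higher in absorptive colonocytes than in all other WT epithelial cells (4.83 to 4.99), and Reg3g was the other of 2 genes called higher there, where 1.13% of all genes were. Muc2, Fcgbp, Zg16, Tff3, Retnlb and Ang4 were all called lower in absorptive colonocytes, at 2.40 to 82.3 CPM, where 9.56% of all genes were. Lypd8 made up 92.5% of the member UMIs of absorptive colonocytes, and 5.74% of those of goblet cells.

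Pigr differed little between goblet, absorptive and cycling cells, and ranged from 436 to 2226 CPM over all epithelial groups. This receptor for polymeric IgA stood at 1464 CPM in goblet cells, 1522 CPM in absorptive colonocytes, 1458 CPM in undifferentiated and cycling cells and 436 CPM in enteroendocrine cells, with its highest level of 2226 CPM in the Krt36 and Aqp4 cluster. The intervals of goblet, absorptive and cycling cells overlap, and the enteroendocrine level lies below all the others. Goblet over other epithelial cells was 0.877-fold (0.831 to 0.926), and the sign of that small difference turned with the unit: log2 -0.19 on summed UMIs, 0.12 as a mean over cells and 0.06 after thinning.

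Undifferentiated and cycling cells held the mucus genes in a few cells, and 1 of the 10 genes, Reg3b, was called higher there, where 2.05% of all genes were. Muc2 was at 644 CPM in undifferentiated and cycling cells, and the highest of the 74 had 337 UMIs, the next 146 and 109, while 36 cells had none. Tff3 (422 CPM), Retnlb (131 CPM) and Ang4 (148 CPM) had their UMIs in few cells too, with 5, 4 and 4 cells at 10 or more UMIs. Zg16, at 37.3 CPM, had at most 4 UMIs in any of them.

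Reg3b and Reg3g, C-type lectins that kill or bind bacteria and are induced by IL-22, were rare. In the 1044 WT epithelial cells Reg3b had 323 UMIs in 17 cells and Reg3g 269 UMIs in 12 cells, and 4 cells had both. One barcode of the absorptive cluster had 61 Reg3b and 201 Reg3g UMIs, with 0 UMIs of Car4 and Aqp8, which are among that cluster's leading genes. The same barcode had 1326 Lypd8 UMIs, where the highest cell of that cluster had 1435. One barcode of the cycling cluster had 229 Reg3b and 13 Reg3g UMIs, with 1 UMI of the proliferation gene Mki67. These 2 cells held 89.8% of the Reg3b and 79.6% of the Reg3g UMIs, so the group levels (156 CPM of Reg3b in cycling cells and 161 CPM of Reg3g in absorptive colonocytes) are those of 1 cell each. Without those cells the same levels were 1.37 and 0.818 CPM. In goblet cells Reg3b had 3 UMIs and Reg3g 1. In the library labelled KO, Reg3g had 6 UMIs in 1 enteroendocrine cell, and Reg3b had 0 in kept cells.

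One WT barcode in the enteroendocrine group carried 275 of that group's 281 Muc2 UMIs, with 77 of Ang4, 60 of Retnlb and 105 of Tff3. It had 560 UMIs of the goblet gene Spink4 and 0 of the enteroendocrine gene Chga. Without it, Muc2 in WT enteroendocrine cells was 37.3 CPM instead of 1532 CPM.

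In WT enteroendocrine cells 0 of the 10 genes were called higher, where 3.89% of all genes were. Enteroendocrine cells were the epithelial group with enough cells in both libraries to be set side by side. Pigr had 155 UMIs (315 CPM) in the 55 cells of the library labelled KO and 80 UMIs (436 CPM) in the 21 cells of WT, a ratio of 0.723 (0.549 to 0.959), or 0.806 (0.597 to 1.10) without the WT barcode just described. Lypd8 had 62 UMIs (126 CPM) in the library labelled KO and 71 UMIs (387 CPM) in WT, 0.326-fold (0.228 to 0.465). Tff3 had 8 UMIs in the library labelled KO and 130 in WT, or 25 in WT without that barcode. Muc2, Fcgbp, Zg16, Retnlb and Ang4 had no UMI in these cells of the library labelled KO. WT cells of other classes carried Lypd8 and Tff3 at 98.6 and 22.2 CPM, and the part of such background in the enteroendocrine values was not tested. Outside enteroendocrine cells, 3 KO-library absorptive colonocytes held 79 Lypd8 and 8 Pigr UMIs.

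Summed over all kept cells, the 10 genes had 431 UMIs (11.6 CPM) in the library labelled KO and 138517 UMIs (4647 CPM) in WT, a ratio of 0.00249 (0.00226 to 0.00274), or -8.65 on the log2 scale. Ang4 was not listed in the file of the library labelled KO, where every listed gene had at least 1 UMI, and was counted as 0. With it, 10 of 10 genes were at least 4-fold lower in the library labelled KO, beside 7.5% of 15235 genes. Muc2 had 3 UMIs in kept cells of the library labelled KO and 12689 in WT, and Zg16 had 2 in the library labelled KO and 25771 in WT. Pigr kept 189 UMIs in the library labelled KO against 11566 in WT, and Lypd8 193 in the library labelled KO against 59105 in WT. The share of epithelial cells was also lower, at 0.739% in the library labelled KO and 13.5% in WT. Inside the epithelial class the 10 genes summed to 713 CPM in the library labelled KO and 19519 CPM in WT. In the library labelled KO, 55 of those 70 epithelial cells were enteroendocrine. How much of the total each of these differences makes up was not tested.

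Outside the epithelium the libraries differed as well. Non-epithelial cells are not known as a source of most of these proteins, and droplet and well methods also pick up RNA free in the suspension, whose part here was not tested. The 9404 non-epithelial cells of the library labelled KO held 67 member UMIs in 49 cells (0.521%, exact interval 0.386 to 0.688%), at most 5 in a cell. The 6671 such cells of WT held 4902 UMIs in 2746 cells (41.2%, 40.0 to 42.4%), at most 30 in a cell. Their levels were 1.82 CPM in the library labelled KO and 214 CPM in WT, a ratio of 0.00854 (0.00661 to 0.0109), at median depths of 2632 UMIs in the library labelled KO and 2006 in WT. In cells reduced to 1000 UMIs, 0.221% of the library labelled KO and 20.5% of WT had a member UMI.

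By gene, Lypd8 outside the epithelium had 15 UMIs in the library labelled KO and 2265 in WT, 242-fold lower in the library labelled KO (146 to 432). The library labelled KO had 1 UMI of Zg16, 3 of Muc2 and 2 of Tff3, where WT had 843 of Zg16, 482 of Muc2 and 509 of Tff3. Fcgbp had 0 UMIs in the library labelled KO and 240 in WT. Taking the 0 as 3 UMIs over the group, it was 128-fold lower (43.3 to 625). Pigr had 23 UMIs in the library labelled KO and 356 in WT, 24.8-fold lower (16.2 to 39.6). All 8 genes with at least 50 UMIs were at least 4-fold lower in the library labelled KO, beside 3.25% of 14482 genes. Reg3b and Reg3g had 0 UMIs in the library labelled KO and 9 each in WT.

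**Figure D4:**
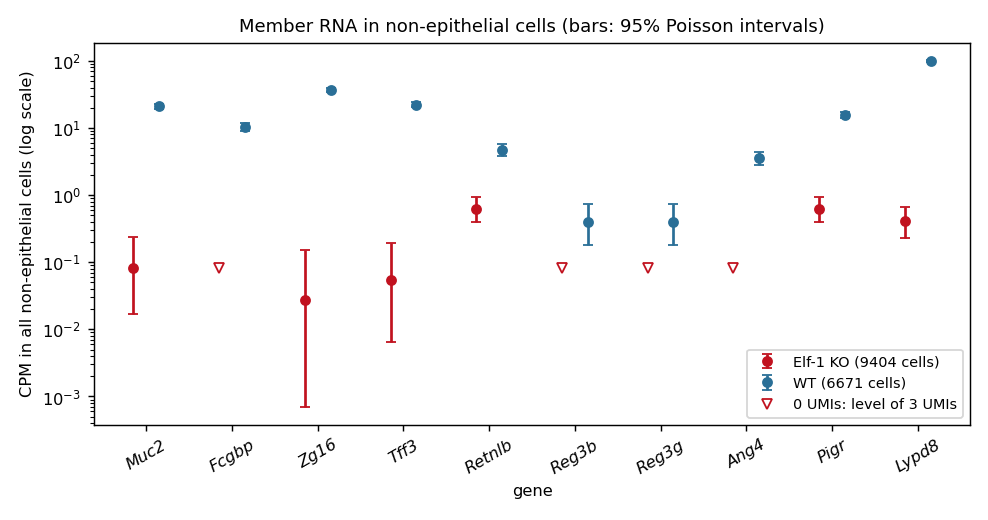
Levels of the 10 genes in all non-epithelial cells on a log scale in CPM, red for the library labelled Elf-1 KO (9404 cells) and blue for WT (6671 cells), with 95% Poisson intervals. Open triangles mark genes with 0 UMIs, drawn at the level of 3 UMIs, Ang4 among them although it is not listed in that file. Every WT point lies above the point of the library labelled KO, and Retnlb is the closest of the genes with 50 or more UMIs.

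Retnlb was the exception in size, with 23 UMIs in the library labelled KO and 108 in WT, 7.52-fold lower (4.76 to 12.4). Of the 23, 22 were in neutrophils, in 16 of 1257 cells, at most 3 in a cell. The same neutrophils had 140678 UMIs of Retnlg, a related resistin-like gene of neutrophils, or 1.56 Retnlb UMIs per 10000 of Retnlg. The 164 WT neutrophils had 5 Retnlb and 4065 Retnlg UMIs. Whether reads were shared between the 2 genes was not tested, and Retnlb in neutrophils is uncertain.

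In WT the summed make-up outside the epithelium lay near that inside it. Of the member UMIs of non-epithelial cells, 46.2% were Lypd8 (44.8 to 47.6%), 17.2% Zg16, 10.4% Tff3, 9.83% Muc2 and 7.26% Pigr. Of those of epithelial cells, 42.5% were Lypd8, 18.7% Zg16, 11.02% Tff3, 9.14% Muc2 and 8.39% Pigr. Goblet cells alone had 5.74% Lypd8 and 37.0% Zg16. The non-epithelial make-up thus lay nearer to that of all epithelial cells than to that of goblet cells. For Lypd8, Zg16, Pigr, Retnlb and Ang4, the epithelial share still lay outside the counting interval of the non-epithelial share. Retnlb was 2.20% outside the epithelium and 3.02% inside, and Ang4 1.65% outside and 2.46% inside. For the other genes the epithelial share lay within that interval. Over 9 WT non-epithelial classes with at least 100 member UMIs, Lypd8 ranged from 35.2% to 57.1%, Zg16 from 13.5% to 24.2% and Pigr from 2.97% to 11.5%. For each gene, 2.47 (Ang4) to 4.14 (Fcgbp) UMIs lay outside the epithelium per 100 inside it. The share of all member UMIs outside the epithelium was 3.54%, but 11.1% as a mean over cells, 10.5% in thinned cells and 1.41% when only cells with no epithelial marker UMI counted.

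**Figure D5:**
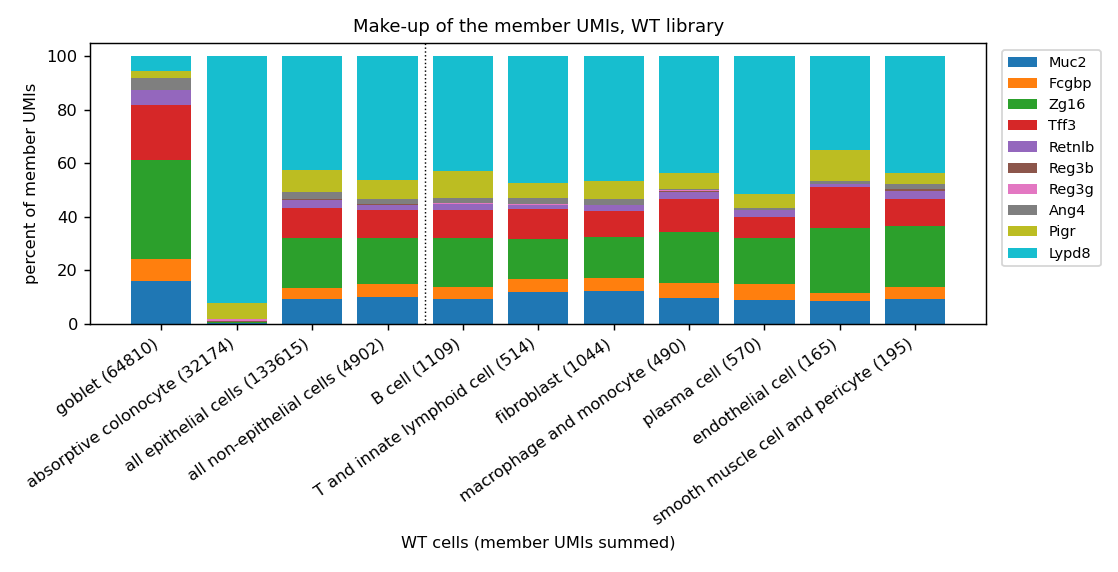
Share of each gene in the summed member UMIs (percent) of WT goblet cells, absorptive colonocytes and all epithelial cells, and, from the bar of all non-epithelial cells on, of non-epithelial classes, with the UMIs summed after each name. Lypd8 is 46.2% of all non-epithelial and 42.5% of all epithelial member UMIs. Among the non-epithelial classes drawn it ranges from 35.2% (endothelial cells) to 51.6% (plasma cells).

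Over 15 WT non-epithelial groups of at least 20 cells, member UMIs ran from 0.496 per cell in B cells to 1.76 in plasma cells, and their order differed between UMIs per cell and CPM. B cells had 328 CPM, T and innate lymphoid cells 274 CPM, fibroblasts 190 CPM and plasma cells, with a median of 14446 UMIs, 121 CPM. An unnamed cluster of 34 cells with a median of 594 UMIs had 1719 CPM, or 1.29 per cell. In the library labelled KO the same classes had 8 (B cells), 1 (T and innate lymphoid cells), 12 (fibroblasts) and 1 (plasma cells) member UMIs. The 18 epithelial markers summed to 26.8 CPM outside the epithelium in the library labelled KO and 374 CPM in WT, 13.9-fold lower (13.1 to 14.9). Single markers ran from 2.37-fold (Cldn4, a tight-junction protein) to 223-fold lower (Phgr1), with a median of 18.6-fold, and Krt8, an epithelial keratin, was 36.0-fold lower.

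Of the 29 genes listed for mucin glycosylation and assembly, 27 had 50 UMIs in WT epithelial cells, and 12 were at least 4-fold higher and 2 at least 4-fold lower in goblet cells, beside 1.46% and 4.76% of all genes, with a median log2 fold of 1.86 beside -0.30 over all genes. Of the 27, 8 had also served to name goblet cells. Clca1, a protease of the mucus layer, was one of those 8. It stood at 8335 CPM in goblet cells and 106 CPM in the others, 78.2-fold higher (72.1 to 85.0). Gcnt3, a glycosyltransferase that branches mucin O-glycans, was 19.8-fold higher (14.8 to 26.7). Tgm3, a transglutaminase that cross-links mucus proteins, was at 1.90 CPM in goblet cells and 201 CPM in the others, and at 653 CPM in absorptive colonocytes. Nlrp6, an inflammasome protein linked to mucus secretion, was 5.98-fold lower in goblet cells (4.02 to 9.29).

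Of the other mucins with enough UMIs, Muc4 was 12.3-fold higher in goblet cells (9.54 to 15.8) and Muc1 4.12-fold (2.48 to 6.79). Muc13 was 0.781-fold and Muc3, a membrane mucin of colonocytes, 31.5-fold lower (23.3 to 43.5). Muc3 had also served to name absorptive colonocytes. Of 18 inducing receptors and regulators, 3 were higher and 1 lower in goblet cells by 4-fold, beside 1.46% and 4.76% of all genes. Those higher were the goblet-lineage factors Spdef (26.3-fold), Atoh1 (20.5-fold) and Foxa3 (10.3-fold), all of which had also served to name goblet cells. Il18, a cytokine of the epithelium, was 9.30-fold lower there (6.86 to 12.9).

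Of 16 other antimicrobial genes, 4 were higher and 3 lower in goblet cells by 4-fold, beside 1.46% and 4.76% of all genes, with a median log2 fold of -0.62. One of the 16, Spink4, had also served to name goblet cells. Reg4, a lectin related to the Reg3 proteins, was at 3176 CPM in goblet cells and 31.3 CPM in the others, 102-fold higher (87.5 to 119). Itln1, intelectin, a lectin for microbial sugars, was 27.2-fold higher (15.7 to 49.8). Dmbt1, a scavenger-receptor protein that binds bacteria, was at 93.0 CPM in goblet cells and 1654 CPM in the others, 17.8-fold lower (14.6 to 21.9). Dmbt1 had also served to name absorptive colonocytes. S100a8, a subunit of calprotectin, was 8.98-fold higher in absorptive colonocytes (7.64 to 10.6).

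In non-epithelial cells, 10 of 19 of these antimicrobial genes were at least 4-fold lower and 7 at least 4-fold higher in the library labelled KO, beside 3.25% and 1.73% of all genes. Spink4 had 1 UMI in the library labelled KO and 910 in WT, and Dmbt1 had 2 in the library labelled KO and 339 in WT. Camp, the neutrophil cathelicidin, had 1983 UMIs in the library labelled KO and 6 in WT, and Lcn2, a protein that withholds iron from bacteria, was 14.0-fold higher (13.5 to 14.4). Neutrophils were 1257 of the kept cells in the library labelled KO and 164 in WT. The antibody-related genes listed beside Pigr (Igha, Jchain, Ighm, Mzb1 and Tnfsf13b) were 0.295-fold (Mzb1) to 0.704-fold (Ighm) in the library labelled KO, with 0 of 5 past 4-fold. Jchain, the joining chain that Pigr recognises, was at 6406 CPM in it and 12421 CPM in WT.

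Genes with patterns most like the members over the 10 WT epithelial groups were named by Pearson r of log2(CPM + 10), among 7071 genes. Because goblet cells stand apart from the other groups, high values are common, and they describe 10 groups of 1 library. Spink4 was first for Muc2 (0.97) and Tff3 (0.98), Sytl2 for Fcgbp (0.95), Spink1 for Zg16 (0.98) and Reg4 for Retnlb (0.97) and Ang4 (0.95). Ly6a was first for Lypd8 (0.98), before Muc13 (0.97), and Phlda1 was first for Pigr (0.96). The values of Reg3b and Reg3g, 0.79 with Ints11 and 0.83 with Psmb9, rest on the single cells described above.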

How the data were processed

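Single-cell RNA-seq counts (raw UMIs per gene and barcode) were used as deposited, with no normalization by the authors. The submitters' processing notes name cutadapt 1.17, STAR 2.6.1a, featureCounts 2.0.1 and GRCm38. Cells needed 500 UMIs, 200 genes and a mitochondrial share of 25% or less. Doublets were called with scrublet in scanpy 1.11.5 (expected rate 0.06). It marked 2.67% in the library labelled KO (260 removed) and 0.025% in WT, where the 5% of highest scores (409) were removed instead. Both libraries were clustered together (2000 variable genes without the 10 members, 30 components, 15 neighbours, Leiden resolution 1.0), and epithelial cells again. Clusters were named by a rule chosen once they had been viewed: at least 3 markers, and 50% of a list, at 2-fold over other cells and in 10% of the cluster's cells. Members and gene lists were chosen with earlier results of these data known. Named genes are the 10 members, the 3 most similar genes of each and the extremes of each list. UMIs were summed over cells (CPM), and ratios carry 95% exact intervals for counting error only, with a count of 0 taken as 3. A gene not listed in a library was counted as 0. Shares are exact binomial (Clopper-Pearson). The fold calculation was tested on simulated data. TMM factors came from edgeR 4.0.16. With 1 library per group there was no test.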

Additional observations from a re-analysis of the deposited data

How the results depend on the processing

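The 6 genes at least 4-fold higher in WT goblet cells numbered 6 under each of the 11 alternatives, among them doublets kept, a 10% mitochondrial limit, other resolutions, members among the variable genes, libraries clustered apart and minimums of 1 or 200 UMIs, where 26.7% and 1.55% of all genes were called. The log2 ratio of the summed members over all kept cells (-8.65) was -8.91 with the 10% mitochondrial limit, -7.62 in cells thinned to 1000 UMIs, -7.08 as a mean over cells and -8.41 with TMM scaling. Outside the epithelium (-6.87) it was -6.51 as a mean over cells and -7.45 without Retnlb, a setting chosen after seeing the data, as were those without the barcodes found in both libraries and without the highest cell. The percent of WT member UMIs outside epithelial cells (3.54) was 3.98 with doublets kept, 3.71 with the 10% limit, 10.5 in thinned cells, 11.1 as a mean over cells and 1.41 when only cells with no UMI of 7 epithelial markers counted. Goblet over other epithelial cells was 0.18 for Reg3g in thinned cells, but with a goblet count of 0 taken as 3, so its sign was not measured. The same fold turned sign for Pigr in thinned cells (0.06) and as a mean over cells (0.12), and the cause was not tested. Of 90 such values over the 10 genes, 47 moved beyond their counting intervals. In non-epithelial cells, single-gene ratios of the library labelled KO over WT kept their sign in 97 of 97 values, counted over the 10 genes and their settings. In the main setting those of Fcgbp, Reg3b, Reg3g and Ang4 rest on a count of 0 taken as 3. No paired analysis was possible because each group is 1 library. At 1 to 3 UMIs per gene, the library labelled KO gives only wide intervals.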
